A study of Homo sapiens with 17 samples.

Results

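HNRNPU occupancy was compared with POLIIS2P occupancy in human embryonic stem cells of the H1 line, an established pluripotent line. The comparison used 4 of the 17 samples of the series, each a CUT&TAG library of genomic DNA, a method in which a transposase tethered to an antibody inserts adapters into the DNA near the antibody's target. For HNRNPU there were 2 libraries (replicates 1 and 2) from cells that received no shRNA. For POLIIS2P there were 2 libraries from cells infected with a virus carrying an shRNA against LUC, a control shRNA, and then selected with puromycin. All the cells were grown in mTeSR1 on Matrigel, and no label says that the repeats came from separate cultures, so that every p-value below covers the spread between libraries, which may be technical. The antibody and the treatment of the cells changed together, and their parts in any difference cannot be told apart. POLIIS2P is the name in the sample titles, which reads as RNA polymerase II phosphorylated on serine 2 of its tail repeat, and the antibody list of the protocol does not name it. From each list the 20000 summits with the highest score were taken, 80000 of the 243148 deposited in the 4 lists. The score is the −log10 p-value that the peak caller gave to each summit, and a summit is the single base where the signal of a peak is highest.

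HNRNPU, also known as SAF-A, is an abundant nuclear protein that binds RNA through its RGG domain and DNA through its SAP domain, and it has been studied as a scaffold of the nuclear matrix and as a factor in splicing and chromatin folding. RNA polymerase II starts at promoters with its tail unphosphorylated or phosphorylated on serine 5, and serine 2 phosphorylation builds up as it elongates through the gene and passes the polyadenylation site. Comparing both antibodies asks at which genes, and where within them, summits of HNRNPU and POLIIS2P lie at the same places.

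The lists held 35526 and 34649 summits for HNRNPU and 87456 and 85517 for POLIIS2P. The 20000 strongest were thus 56.3% and 57.7% of the HNRNPU lists but 22.9% and 23.4% of the POLIIS2P lists. The cutoff for a strong summit therefore stood at a lower percentile in the HNRNPU lists. Equal percentiles in lists of the different antibodies are for this reason not equal standings against the cutoff. The last summit taken scored 3.80 and 3.88 for HNRNPU and 9.57 and 9.36 for POLIIS2P, and the next one scored 3.80, 3.88, 9.57 and 9.35. Read depth is unknown and the score grows with depth, so that scores were compared only as ranks or percentiles within a list, a high percentile being a strong summit. Repeats were not copies of each other, since 3.01% to 3.16% of the summits of a list lay on the same base in the other repeat. Of 14 pluripotency markers 13 were measured, and 8 of them carried a strong summit in each HNRNPU library and 10 in each POLIIS2P library. Of 8 endoderm and mesoderm markers 4 and 5 carried a strong HNRNPU summit and 2 and 1 a strong POLIIS2P summit, and of 7 neural markers 3 and 3, and 1 and 1. These counts stand beside 58.4% and 58.3% of all protein-coding genes with a strong HNRNPU summit. For POLIIS2P the shares of all protein-coding genes were 50.1% and 49.3%. POU5F1 had no summit in any of the 4 lists as used here. NANOG had none for HNRNPU and stood at percentiles 81.9 and 48.3 for POLIIS2P, the first of them a strong summit. SOX2 had a strong HNRNPU summit in replicate 2 only, at percentile 62.7, and weaker POLIIS2P summits at 39.7 and 46.4.

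The promoters of 9 genes are printed to show the starts of the genes that lead each class: 3 that carried both antibodies, 3 with HNRNPU alone and 3 with POLIIS2P alone. They are the highest of each class as ranked further on, passing over LOC102724250, LOC124905564 and SCRIB, whose promoters are not printed. Not every summit lies within these windows, and the distances are given after them. Each runs from 250 bases before the listed gene start to 50 bases after it, 5′ to 3′ on the strand of the gene, from RefSeq on GRCh38.p14. Capitals mark matches on either strand to TATAAA, the TATA box, to CCAAT, the CCAAT box, to GGGCGG, the GC box, to GCATGCGC, part of the NRF1 site, to CCGGAAG, which resembles ETS sites, to AAGATGGCG, which resembles the YY1 site, and to the short run CTTCC. The reverse of CCGGAAG is CTTCCGG, which contains CTTCC, so that those matches overlap.
RPS19, chr19:41860005-41860304, + strand: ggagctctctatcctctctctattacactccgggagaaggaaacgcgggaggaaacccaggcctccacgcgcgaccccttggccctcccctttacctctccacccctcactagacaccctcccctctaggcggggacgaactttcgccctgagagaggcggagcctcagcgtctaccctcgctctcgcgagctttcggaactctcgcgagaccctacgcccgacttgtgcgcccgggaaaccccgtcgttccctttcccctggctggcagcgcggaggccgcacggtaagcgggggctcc
FAM228B, chr2:24076583-24076882, + strand: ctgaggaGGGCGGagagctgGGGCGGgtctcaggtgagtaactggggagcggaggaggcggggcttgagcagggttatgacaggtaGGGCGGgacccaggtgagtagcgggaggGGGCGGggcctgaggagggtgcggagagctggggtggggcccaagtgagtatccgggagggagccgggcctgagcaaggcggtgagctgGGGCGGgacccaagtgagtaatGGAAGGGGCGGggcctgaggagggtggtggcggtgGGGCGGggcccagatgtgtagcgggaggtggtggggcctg
SF3B6, chr2:24076277-24076576, - strand: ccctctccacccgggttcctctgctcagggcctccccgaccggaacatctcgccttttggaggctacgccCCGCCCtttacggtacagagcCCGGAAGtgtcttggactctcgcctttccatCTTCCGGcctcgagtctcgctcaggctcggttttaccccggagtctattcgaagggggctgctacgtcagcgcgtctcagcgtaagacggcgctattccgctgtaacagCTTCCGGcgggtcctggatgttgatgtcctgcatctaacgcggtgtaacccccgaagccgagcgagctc
C6orf89, chr6:36885702-36886001, + strand: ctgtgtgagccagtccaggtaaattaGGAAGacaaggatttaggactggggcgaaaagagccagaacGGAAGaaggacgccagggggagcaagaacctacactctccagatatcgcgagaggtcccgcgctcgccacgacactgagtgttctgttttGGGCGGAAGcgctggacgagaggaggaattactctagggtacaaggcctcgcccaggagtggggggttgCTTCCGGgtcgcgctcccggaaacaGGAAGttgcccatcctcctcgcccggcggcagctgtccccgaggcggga
ARRDC4, chr15:97960453-97960752, + strand: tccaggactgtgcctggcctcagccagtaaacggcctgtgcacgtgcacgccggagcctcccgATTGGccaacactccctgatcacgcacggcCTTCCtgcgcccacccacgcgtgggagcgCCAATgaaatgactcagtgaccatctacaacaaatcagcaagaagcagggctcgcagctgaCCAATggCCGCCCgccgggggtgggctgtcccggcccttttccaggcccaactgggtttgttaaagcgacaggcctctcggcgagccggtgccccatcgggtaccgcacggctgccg
FIBP, chr11:65888422-65888721, - strand: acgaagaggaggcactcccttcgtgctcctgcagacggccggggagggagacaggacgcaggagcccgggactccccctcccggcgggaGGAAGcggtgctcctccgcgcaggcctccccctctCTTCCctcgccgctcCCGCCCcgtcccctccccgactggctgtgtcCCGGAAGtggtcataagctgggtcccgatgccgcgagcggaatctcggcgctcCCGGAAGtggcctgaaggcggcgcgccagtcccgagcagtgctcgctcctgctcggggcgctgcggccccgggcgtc
RPL7A, chr9:133347968-133348267, + strand: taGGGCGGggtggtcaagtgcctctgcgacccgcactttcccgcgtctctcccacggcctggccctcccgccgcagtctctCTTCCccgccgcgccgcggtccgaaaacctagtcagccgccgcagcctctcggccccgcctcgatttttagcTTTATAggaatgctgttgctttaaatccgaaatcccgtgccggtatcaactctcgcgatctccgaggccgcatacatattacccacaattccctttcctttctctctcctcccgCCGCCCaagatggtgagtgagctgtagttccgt
SURF1, chr9:133356438-133356737, - strand: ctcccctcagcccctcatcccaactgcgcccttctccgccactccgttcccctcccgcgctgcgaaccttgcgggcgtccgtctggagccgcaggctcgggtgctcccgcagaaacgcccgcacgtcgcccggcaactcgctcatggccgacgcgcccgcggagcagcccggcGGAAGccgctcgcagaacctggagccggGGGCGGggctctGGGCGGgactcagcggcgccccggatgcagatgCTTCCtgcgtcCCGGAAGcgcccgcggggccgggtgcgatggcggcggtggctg
ACP4, chr19:50790165-50790464, + strand: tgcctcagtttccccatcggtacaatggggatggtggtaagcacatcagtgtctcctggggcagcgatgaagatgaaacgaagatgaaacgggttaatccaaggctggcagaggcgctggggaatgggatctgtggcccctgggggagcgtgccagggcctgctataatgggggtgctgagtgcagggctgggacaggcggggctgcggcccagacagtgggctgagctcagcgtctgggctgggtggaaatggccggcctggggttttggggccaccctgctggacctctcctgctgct
RPS19, FAM228B and SF3B6 carried both antibodies. The HNRNPU summit at base 24076548 of chromosome 2 lay within the SF3B6 promoter as printed, and the POLIIS2P summit at base 24076657 lay within the FAM228B promoter, which starts the other way. The start printed for C6orf89 lies inside the annotated span of the gene. For C6orf89, ARRDC4 and FIBP, carried by HNRNPU alone, the strongest HNRNPU summits lay 153 and 111 bases before the start, 247 and 246 bases before it, and 260 and 18 bases after it. At RPL7A, SURF1 and ACP4 the strongest POLIIS2P summits lay 3957 and 3916, 4312 and 4353, and 4600 and 4564 bases after the start, far outside the window printed. RPS19 and ACP4 held none of the 7 motifs, which says only that these letters are not in this window.

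Strong HNRNPU summits lay at gene starts and between genes more often than those of POLIIS2P, which lay more often inside genes and at their finishes. A summit was put at a gene end when it lay within 1000 bp of either outer end of 1 of 20037 protein-coding genes, in the gene body when it lay inside such a gene but farther from its ends, and was otherwise intergenic. Gene-end summits made up 40.1% ± 0.272 of the HNRNPU lists (SD, n = 2) and 36.1% ± 0.336 of the POLIIS2P lists. Gene-body summits made up 32.0% ± 0.0354 and 46.2% ± 0.283, and intergenic ones 27.9% ± 0.237 and 17.8% ± 0.0530. The repeats of an antibody lay close together, and the antibodies did not overlap in any of these shares. The exact permutation test over the 4 libraries gave a two-sided p = 0.333 for each share, the smallest value that 6 assignments allow, so that this design cannot reach 0.05. The difference in gene-end share depended on the window, being 4.03 percentage points at 1000 bp and -0.165 at 2000 bp.

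**Figure D1:**
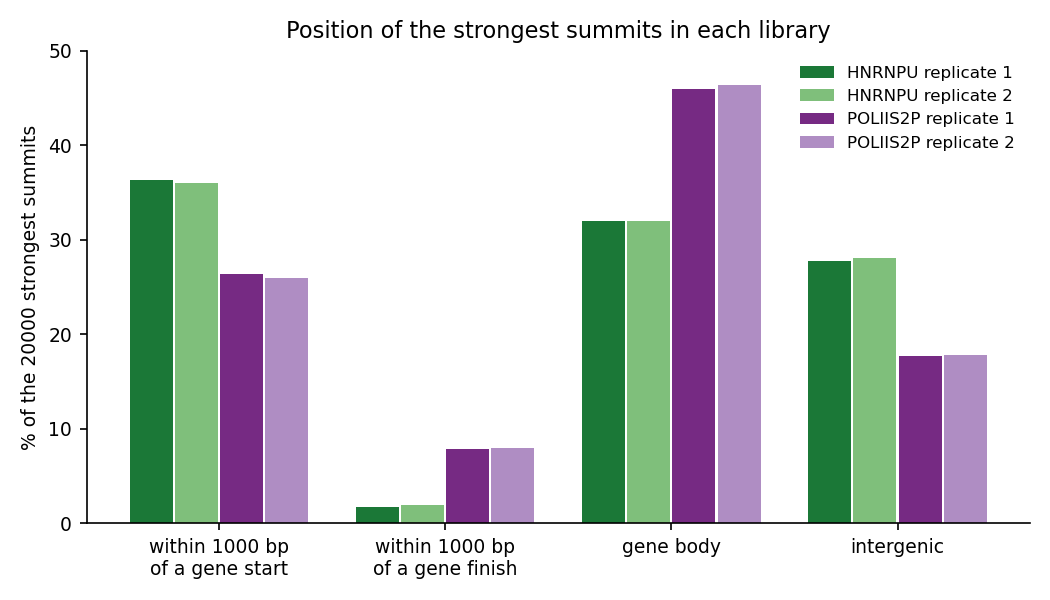
Percentage of the 20000 strongest summits of each library (y axis) that lay within 1000 bp of a gene start, within 1000 bp of a gene finish, in a gene body or between genes (x axis), with 1 bar per library. The HNRNPU bars stand higher at starts and between genes, and the POLIIS2P bars at finishes and in gene bodies; a summit at an internal start is counted at the start and in the body.

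Where strand was known, for 15843 genes, gene ends were split into starts, where transcription begins, and finishes, the outer end of the annotated transcript. Among the summits at a start or a finish, 95.5% and 95.0% of those of HNRNPU were at a start, against 77.0% and 76.5% of those of POLIIS2P, 18.5 percentage points apart (two-sided exact permutation p = 0.333). Counted over all strong summits, starts held 36.3% and 36.0% for HNRNPU and 26.4% and 26.0% for POLIIS2P. Finishes held 1.73% and 1.90% for HNRNPU and 7.88% and 7.98% for POLIIS2P. Finish summits were thus rare for HNRNPU in both repeats and several times as frequent for POLIIS2P. At starts both antibodies peaked at nearly the same place, the median summit lying 63 bases before the start in both HNRNPU libraries and 58 and 56 bases before it in the POLIIS2P libraries. At finishes the median summit lay 296.5 and 326 bases past the finish for HNRNPU and 325 and 320 bases past it for POLIIS2P. In the 100 bp bin just before the start 1756 and 1697 HNRNPU summits and 1442 and 1502 POLIIS2P summits were counted. In the bin from 300 to 400 bp past the finish there were 52 and 69 HNRNPU summits and 150 and 168 POLIIS2P summits.

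**Figure D2:**
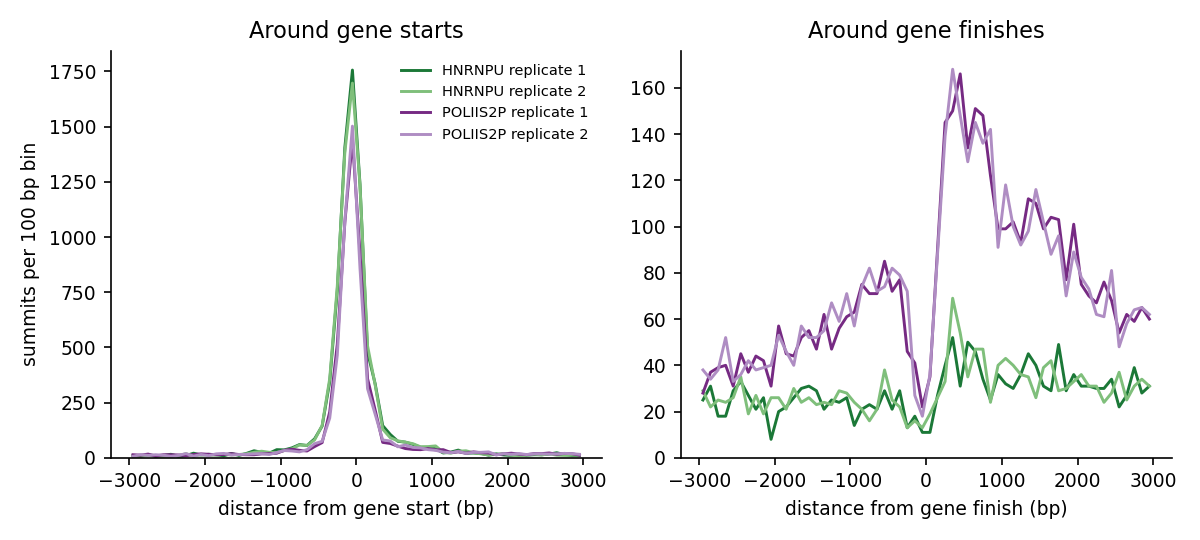
Number of the 20000 strongest summits per 100 bp bin (y axis, with separate scales) by distance from the nearest gene start (left) and gene finish (right) in bp (x axis), positive values lying downstream, with 1 line per library. All 4 libraries peak just before the start; around the finish the POLIIS2P lines dip at the finish itself and rise to 150 to 168 summits 300 to 400 bp past it, while the HNRNPU lines reach 52 and 69 there.

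The lean of HNRNPU towards gene ends was strongest in its highest ranks. Among the first 1000 HNRNPU summits 71.4% and 71.5% lay at gene ends, and among ranks 10001 to 20000 it was 28.1% and 27.1%. For POLIIS2P the shares in the same ranks were 57.2% and 54.7%, and 28.9% and 29.2%. Even among its first 1000 summits POLIIS2P had 70.5% and 71.2% of its start and finish summits at starts, where HNRNPU had 98.4% in each repeat. Inside genes the antibodies also leaned to different sides. Body summits inside a single gene of known strand lay at a median of 47.9% and 48.0% of the way from start to finish for HNRNPU and 57.9% and 58.5% for POLIIS2P. When each gene was cut into 5 equal parts, part 1, nearest the start, held 22.4% and 22.6% of the HNRNPU body summits and 15.8% and 14.8% of those of POLIIS2P. Part 5 held 18.6% and 19.5% for HNRNPU and 25.8% and 26.3% for POLIIS2P. The genes that held these summits had a median length of 109078 and 113430 bp for HNRNPU and 73689 and 72011 bp for POLIIS2P.

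How often sites of both antibodies coincided differed with the place and with the antibody whose sites were counted. Between an HNRNPU and a POLIIS2P list 40.1% to 41.3% of the strong summits had a summit of the other list within 250 bp, against 60.4% between the HNRNPU repeats and 71.5% between the POLIIS2P repeats. Of 12087 HNRNPU sites found in both repeats, 5577 (46.1%) had POLIIS2P in both of its lists and 4615 (38.2%) in neither. Of 14300 POLIIS2P sites found in both repeats, 5630 (39.4%) had HNRNPU in both lists and 6305 (44.1%) in neither. Among the POLIIS2P sites the start had the highest share and the finish the lowest. At starts 72.2% of 4184 POLIIS2P sites also carried HNRNPU, at finishes 12.4% of 1205 sites, in gene bodies 26.96% of 6120 and between genes 27.7% of 2504. The HNRNPU sites at starts, 5424 in number, carried POLIIS2P in both lists at 54.8% and in neither at 26.8%. The few HNRNPU sites at finishes, 203, carried it at 71.4%, the 3309 in gene bodies at 49.6% and the 2857 between genes at 24.6%. Among the sites with POLIIS2P alone, 489 were at starts and 904 at finishes, whereas sites with HNRNPU alone were at starts in 1455 cases and at finishes in 35.

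Most genes that carried HNRNPU also carried POLIIS2P. A gene was said to carry an antibody when both repeats had a strong summit from 1000 bp before to 1000 bp after it, and to lack it when neither had. Of the 20037 protein-coding genes 7185 (35.9%) carried both and are called shared, 1821 (9.09%) carried HNRNPU alone, 770 (3.84%) carried POLIIS2P alone, 5682 carried neither, and in 4579 the repeats differed. The classes with 1 antibody depended on the cutoff and the libraries. With all deposited summits their order turned, to 587 with HNRNPU alone and 938 with POLIIS2P alone, and with the series-wide HNRNPU intervals they numbered 4783 and 327. Without HNRNPU replicate 1 there were 1304 genes with POLIIS2P alone, and without its replicate 2 there were 1243. The shared genes were 70.5% of the genes that carried HNRNPU and 80.2% of those that carried POLIIS2P. Of all protein-coding genes 50.8% carried HNRNPU and 44.7% carried POLIIS2P. In 5997 shared genes of known strand both antibodies were at a start in 69.4%. The finish set them apart, since 707 shared genes (11.8%) had POLIIS2P at the finish with HNRNPU in neither list there, and 8 (0.133%) had the reverse. POLIIS2P stood in the interior without HNRNPU in 809 shared genes (13.5%) and HNRNPU without POLIIS2P in 80 (1.33%).

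The shared genes with the highest percentile in their weakest list were RPS19, FAM228B, SF3B6, TP53I3, ADAMTS10, TOMM40, GTPBP3, CELF5, LMTK3 and TSSC4. RPS19 encodes a protein of the small ribosomal subunit, and its strongest summits ranked 6 and 16 in the HNRNPU lists and 55 and 51 in the POLIIS2P lists. The HNRNPU summits at RPS19 lay 228 and 345 bases before the start, and the POLIIS2P summits 357 and 351 bases past the finish. FAM228B, SF3B6 and TP53I3 shared 1 pair of summits between SF3B6, a subunit of the U2 snRNP, and its neighbours, so that they are not separate observations; TP53I3 is known as a target of p53. These summits ranked 29 and 27 for HNRNPU and 23 and 23 for POLIIS2P. At ADAMTS10, a gene of a secreted metalloprotease, the summits ranked 25 and 47 for HNRNPU and 1 and 1 for POLIIS2P. The replicate 1 HNRNPU summit and both POLIIS2P summits at ADAMTS10 lay on the same base, 8592442 of chromosome 19, 226 bases before a start inside the gene. TOMM40 encodes the channel of the outer mitochondrial membrane through which proteins are imported, and it carried both antibodies before its start, ranked 44, 46, 129 and 187. At GTPBP3, an enzyme that modifies mitochondrial tRNA, at CELF5, an RNA-binding protein, and at LMTK3, a kinase, both antibodies lay in the interior in all 4 libraries. At TSSC4 all 4 summits lay 155 or 156 bases before the start, ranked 33, 37, 183 and 248.

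Genes with 1 antibody alone often had a weaker summit of the other. How often is tied to the lists, since the POLIIS2P lists went on far longer below their 20000 strongest summits, and their last strong summit scored 9.57 and 9.36 against 3.80 and 3.88 for HNRNPU, so that the shares of the 2 classes cannot be compared. Of the 1821 genes with HNRNPU alone, 1272 (69.9%) had a summit below the 20000 strongest in both POLIIS2P lists, 307 (16.9%) in 1 and 242 (13.3%) in none. The 10 genes with the highest HNRNPU percentiles were LOC102724250, C6orf89, ARRDC4, LOC124905564, FIBP, FAM32A, EXOSC4, CCDC28A, MTPN and MAGEF1. Of these, LOC102724250 rests on bases 634029 and 634030 of chromosome 1, the strongest HNRNPU summit of each repeat, and LOC124905564 on bases 10101 and 10106, near the first base of that chromosome. Neither had a POLIIS2P summit in the shLUC lists, and in the POLIIS2P library of shHNRNPU cells they stood at percentiles 99.99 and 94.1. The place of LOC102724250 and LOC124905564 in this class is therefore uncertain. C6orf89 stood at HNRNPU percentiles 98.1 and 98.8 and POLIIS2P percentiles 75.9 and 72.6. Its POLIIS2P summits scored 9.20 and 8.27, not far below the last strong summits at 9.57 and 9.36. ARRDC4, an arrestin-related adaptor, stood at 98.0 and 99.1 for HNRNPU with no POLIIS2P summit in either list. FIBP, which encodes a binding partner of acidic fibroblast growth factor, stood at 97.4 and 98.0 for HNRNPU and 76.2 and 51.0 for POLIIS2P. EXOSC4, a subunit of the RNA exosome, stood at 96.1 and 98.2 against 19.1 and 57.6, and MAGEF1 at 95.6 and 96.8 against 42.7 and 25.7. The HNRNPU values exceeded both POLIIS2P values at each of the 10 genes, which the rule for naming them fixes.

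Of the 770 genes with POLIIS2P alone, 297 (38.6%) had no HNRNPU summit in either list, 283 (36.8%) a weaker one in 1 list and 190 (24.7%) in both. The 10 named by the same rule were SCRIB, RPL7A, SURF1, ACP4, SYCE2, MRPL28, RAB26, EXOC7, ZACN and DPPA4. RPL7A, a protein of the large ribosomal subunit, and its neighbour SURF1, a factor for assembly of cytochrome c oxidase, shared a POLIIS2P summit that ranked 90 and 61. That summit lay 749 and 708 bases past the finish of RPL7A and 417 and 376 bases before the finish of SURF1, the genes running towards each other. RPL7A had no HNRNPU summit in either list, and SURF1 had 1, at percentile 4.87 in replicate 1. DPPA4, a marker of pluripotent cells, had POLIIS2P summits ranked 211 and 163, lying 811 and 876 bases past its finish, and no HNRNPU summit. EXOC7, of the exocyst complex, and ZACN, a ligand-gated channel, shared 1 POLIIS2P summit, 434 bases past the finish of EXOC7, ranked 149 and 196. At ACP4 the POLIIS2P summits lay 204 and 240 bases before the finish. Only some of these genes carried it at the start, SYCE2, of the synaptonemal complex, at 50 and 51 bases before it and MRPL28, of the mitochondrial ribosome, at 26 and 30 bases after it. SCRIB, a regulator of cell polarity, stood at HNRNPU percentiles 14.7 and 21.6 against a POLIIS2P percentile of 99.9 in each repeat.

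**Figure D3:**
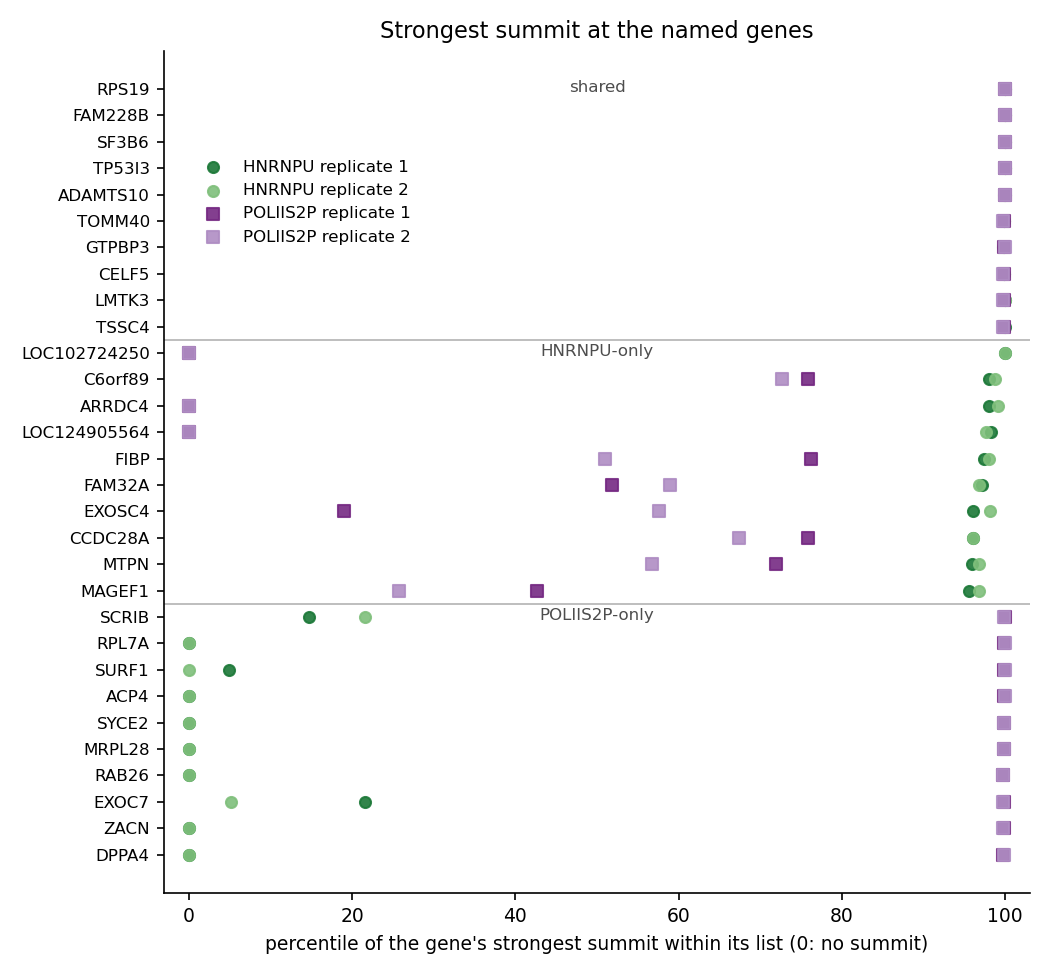
Percentile of the strongest summit within its own list (x axis; 0 means no summit in that list) at the 30 named genes (y axis), with circles for the HNRNPU libraries and squares for the POLIIS2P libraries. At the 10 shared genes all marks lie together at the top of the scale; at the genes named for HNRNPU alone the squares spread from 0 to 76.2, and at those named for POLIIS2P alone the circles lie between 0 and 21.6.

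The classes differed in gene length and in where the summits lay. The median length was 33995 bp for shared genes, 52133 bp for genes with HNRNPU alone and 12628 bp for genes with POLIIS2P alone. Of 1399 genes over 200000 bp, 359 (25.7%) carried HNRNPU alone and 8 (0.572%) POLIIS2P alone. Of 5694 genes up to 10000 bp, 286 (5.02%) carried HNRNPU alone and 321 (5.64%) POLIIS2P alone. Within genes from 10000 to 100000 bp the shares were 41.2% shared, 8.19% HNRNPU alone and 3.70% POLIIS2P alone. Genes of known strand with HNRNPU alone had it at a start in 68.3%, in the interior in 30.9% and at the finish in 1.74%. Genes with POLIIS2P alone had it at a start in 36.3%, in the interior in 47.3% and at the finish in 31.3%. In shared genes HNRNPU was at a start in 82.3%, in the interior in 25.9% and at the finish in 5.44%. For POLIIS2P in shared genes the shares were 72.7%, 44.2% and 19.5%. A longer gene offers more room for a summit, and its part in the classes was not tested.

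**Figure D4:**
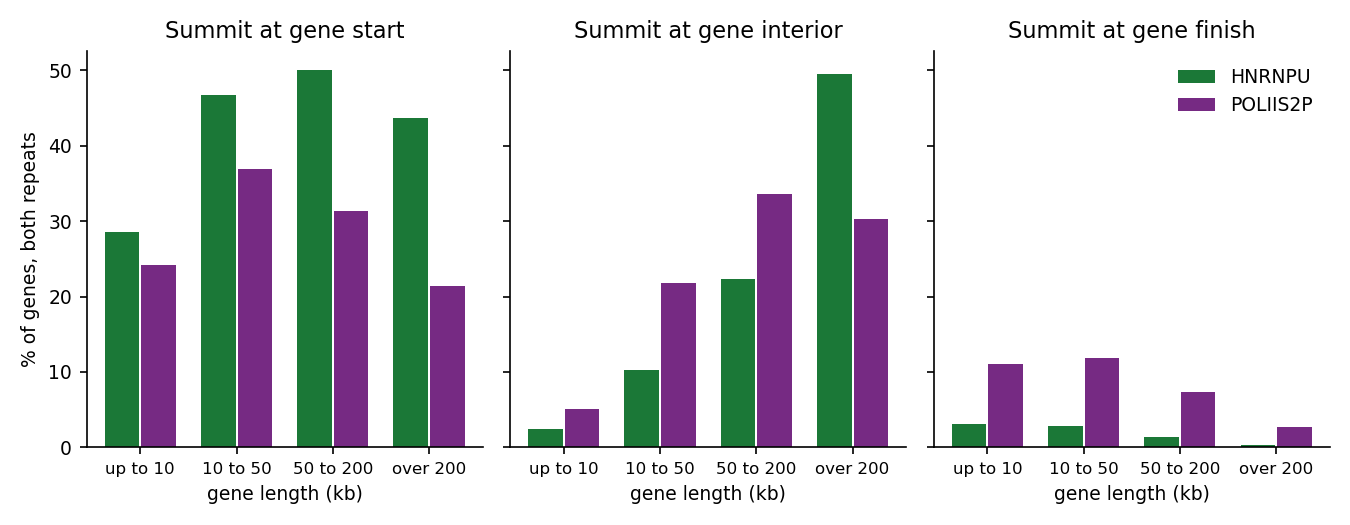
Percentage of protein-coding genes of known strand (y axis) with a strong summit in both repeats at a start (left), in the interior (middle) or at the finish (right), by gene length in kb (x axis), with 1 bar per antibody. HNRNPU stands above POLIIS2P at starts in each length group and below it at finishes; in the interior HNRNPU is below POLIIS2P up to 200000 bp and above it, at 49.5% against 30.3%, in longer genes.

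The promoters of shared genes held more CpG and more of several motifs than promoters at large. The median promoter had 26 CpG in shared genes, 23 with HNRNPU alone, 24.5 with POLIIS2P alone, 6 with neither and 22 in all 15843 promoters. A start on the other strand within 1000 bp was found for 22.2% of shared genes, 13.7% of genes with HNRNPU alone, 7.60% of those with POLIIS2P alone and 13.6% of all. CCGGAAG was in 20.4% of shared promoters, 13.7% with HNRNPU alone, 13.2% with POLIIS2P alone and 14.2% of all. AAGATGGCG was in 4.39%, 1.61%, 4.05% and 2.69%. GGGCGG was in 72.3%, 61.9%, 67.1% and 58.3%, and GCATGCGC in 6.09%, 3.82%, 5.41% and 4.28%. TATAAA was in 4.62%, 7.50%, 7.60% and 9.75%, CCAAT in 40.1%, 33.5%, 29.6% and 36.4%, and CTTCC in 76.7%, 74.3%, 74.5% and 73.9%. These are shares of windows that hold the letters, not of bound sites.

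Each gene's strongest summit was then ranked within its library and compared between the antibodies. Of the 20037 genes 11590 had a summit in all 4 full lists and were tested, on normal scores of the ranks, with limma. At a Benjamini-Hochberg adjusted p under 0.05, 1954 genes (16.9%) ranked higher in HNRNPU and 1901 (16.4%) ranked higher in POLIIS2P. A difference of 1 on this scale is 1 standard deviation of the ranked genes. Leaving out POLIIS2P replicate 1 gave 1198 and 1165 genes and leaving out its replicate 2 gave 1117 and 1133. Of the tested genes 1571 shared their strongest summit in all 4 lists with another, leaving 10779 distinct sets.

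The 5 genes with the largest difference towards HNRNPU were ZNF384, PTK2B, TRIM35, SLC25A53 and TBRG1. ZNF384, a zinc finger transcription factor, ranked 31 and 19 in the HNRNPU lists and 17902 and 10957 in the POLIIS2P lists, a difference of 3.37 ± 0.21 (SE; limma adjusted p = 7.47e-07). All 4 of its summits lay within 1000 bp of its start. PTK2B, a kinase related to FAK, and TRIM35, a ubiquitin ligase, shared their HNRNPU summits, which ranked 54 and 17 against 10458 and 17525 for POLIIS2P, a difference of 3.25 ± 0.23 (adjusted p = 1.55e-06). SLC25A53, a mitochondrial carrier, stood at percentiles 87.3 and 90.0 for HNRNPU and 5.89 and 2.47 for POLIIS2P, a difference of 3.23 ± 0.45 (adjusted p = 0.000158). TBRG1, a growth regulator, had HNRNPU summits 65 and 66 bases before its start, and its POLIIS2P summits lay in the interior, at percentiles 13.3 and 16.0, with a difference of 3.19 ± 0.40 (adjusted p = 7.29e-05).

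Towards POLIIS2P the largest differences were those of SCRIB, EXOC7, HMGA1, BEST2 and SF3B3. HMGA1, a chromatin protein that binds AT-rich DNA, had summits ranked 2 and 3 in the POLIIS2P lists and 18593 and 10605 in the HNRNPU lists, a difference of -4.32 ± 0.23 (limma adjusted p = 2.21e-07). Both POLIIS2P summits at HMGA1 lay past its finish, by 664 and 634 bases, and so did the HNRNPU summits, by 760 and 459 bases. SCRIB differed by -4.49 ± 0.30 (adjusted p = 1.09e-06) and EXOC7 by -4.42 ± 0.36 (adjusted p = 4.32e-06). BEST2, a chloride channel, had POLIIS2P summits ranked 727 and 675, lying 494 and 576 bases before its finish, and differed by -3.97 ± 0.37 (adjusted p = 9.46e-06). SF3B3, a core subunit of SF3b, stood at percentiles 99.5 and 99.2 for POLIIS2P and at 0.128 and 54.7 for HNRNPU, and its difference of -3.83 ± 0.61 (adjusted p = 0.000431) ranged from -5.13 to -2.54 as 1 library was left out. The gene of HNRNPU itself carried both antibodies and ranked higher in POLIIS2P, at percentiles 99.5 and 99.5 against 86.6 and 76.8 for HNRNPU, a difference of -1.70 ± 0.24 (adjusted p = 0.000189). POLR2A, the largest subunit of the polymerase, stood at 92.6 and 89.0 for HNRNPU and 91.2 and 93.4 for POLIIS2P, a difference of 0.35 ± 0.28 that did not pass (adjusted p = 0.367).

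The place of the strongest summit moved with the call. Among 1659 genes of known strand that ranked higher in HNRNPU, its strongest summit lay within 1000 bp of the outer start in 80.2% in each repeat, and that of POLIIS2P lay there in 69.4% in each. Among 1520 genes that ranked higher in POLIIS2P, its strongest summit lay at the outer start in 31.2% and 30.3% and at the finish in 27.9% in each repeat. At those same genes the strongest HNRNPU summit lay at the outer start in 53.8% of cases in each repeat and at the finish in 10.5% and 11.1%. Among 6385 genes that were not called, HNRNPU lay at the outer start in 67.6% and 67.5% and at the finish in 2.71% and 2.90%. POLIIS2P lay at the outer start of the uncalled genes in 48.6% and 47.0% and at the finish in 9.01% and 9.48%. By length, 231 of 1001 tested genes over 200000 bp (23.1%) ranked higher in HNRNPU and 67 (6.69%) in POLIIS2P, against 325 (16.1%) and 465 (23.0%) of 2022 genes up to 10000 bp.

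A set of genes had HNRNPU at its start and POLIIS2P at its finish. The places of the strongest summits in both repeats were compared in 9564 tested genes of known strand. In 373 (3.90%) HNRNPU lay at the outer start and POLIIS2P at the finish, and in 13 (0.136%) the opposite held. Counted singly, HNRNPU lay at the outer start in 5959 (62.3%) and POLIIS2P at the finish in 856 (8.95%). HNRNPU lay at the finish in 267 (2.79%) and POLIIS2P at the outer start in 4129 (43.2%). The 373 and 13 genes were not tested against these single shares. RPS19 led the 373 genes, followed by CIC, MRPS18B, RNF31, CRYZL1 and KHSRP. At CIC, a transcriptional repressor, HNRNPU lay 382 and 359 bases after the start and POLIIS2P 442 bases past the finish in each repeat, at percentiles 99.8 and 99.7 for HNRNPU and 99.8 and 99.8 for POLIIS2P. At MRPS18B, of the mitochondrial ribosome, HNRNPU lay 359 and 285 bases before the start and POLIIS2P 492 and 388 bases past the finish. KHSRP, an RNA-binding regulator of splicing and mRNA decay, had HNRNPU 367 bases before the start in each repeat and POLIIS2P 539 and 479 bases past the finish. PTMA, the gene of prothymosin alpha, had HNRNPU 217 and 243 bases before the start and POLIIS2P 347 and 283 bases past the finish. EIF5A, a translation factor, had POLIIS2P 955 bases past the finish in each repeat, with HNRNPU 449 and 546 bases after the outer start. These genes were ordered by the percentile in their weakest list, and RPS19, MRPS18B and EIF5A had already been named by their lists.

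Among the gene lists, more heat shock, histone, nuclear architecture and hnRNP genes ranked higher in HNRNPU than in POLIIS2P, and more ribosomal protein, pluripotency and clustered protocadherin genes ranked higher in POLIIS2P. The counts stand beside 16.9% and 16.4% of all genes tested, and no list was tested as a set. Counts of shared genes and of genes with HNRNPU or POLIIS2P alone stand beside 35.9%, 9.09% and 3.84% of all protein-coding genes. They moved with the cutoff, since among 23 lists the number with HNRNPU alone stayed within 1.5 times its value in 4 with 10000 summits and in 4 with all summits. Of 25 heat shock and chaperone genes, which fold proteins under stress, 24 were tested, 10 ranked higher in HNRNPU and 3, CCT5, CCT6A and HSPA4, in POLIIS2P. HSPD1 and HSPE1, the mitochondrial chaperonins that share a promoter and a summit, stood at 99.5 and 99.6 for HNRNPU and 99.3 in both POLIIS2P lists, with a difference of 0.61 ± 0.14 (limma adjusted p = 0.00599). CCT3, of the cytosolic chaperonin, differed by 0.71 ± 0.20 (adjusted p = 0.0151). HSP90AB1, the constitutive HSP90, had HNRNPU 152 bases after the start in each repeat and POLIIS2P 809 and 950 bases past the finish, and its difference of -0.38 ± 0.16 did not pass (adjusted p = 0.0823). Of the 25, 19 were shared.

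Of 69 replication-dependent histone genes, whose short mRNAs lack a poly(A) tail, 6 were shared, 12 had HNRNPU alone, 5 had POLIIS2P alone and 29 had neither. With 10000 summits per list 0 were shared and 7 had HNRNPU alone, and with all summits 29 were shared and 2 had HNRNPU alone. In the rank test 29 entered, 10 ranked higher in HNRNPU and 2, H3C4 and H4C16, in POLIIS2P, and several are pairs that start from 1 shared promoter, so that 27 genes of known strand held 20 distinct sets of summits. H2AC11 and H2BC11, such a pair, stood at 97.2 and 96.5 for HNRNPU and 94.5 and 83.8 for POLIIS2P, a difference of 1.19 ± 0.30 (limma adjusted p = 0.00799). H2AC25 and H2BC26 differed by 1.07 ± 0.33 (adjusted p = 0.0250). Histone genes are near copies of each other, and the placing of reads among them is uncertain.

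Of 32 nuclear architecture genes 27 were tested, 7 ranked higher in HNRNPU and 1, LMNB2, in POLIIS2P. NUMA1, the mitotic apparatus protein, differed by 1.09 ± 0.21 (limma adjusted p = 0.00151), and CTCF, the insulator protein, by 0.10 ± 0.19 (adjusted p = 0.714). CBX3, the heterochromatin protein HP1 gamma, differed by 0.71 ± 0.18 (adjusted p = 0.00903) and shared its summit with the hnRNP gene HNRNPA2B1, which starts the other way, while CBX5 differed by 0.53 ± 0.21 (adjusted p = 0.0690). Of 26 hnRNP genes, which package and splice nuclear RNA, 23 were shared. Among the 25 tested, 8 ranked higher in HNRNPU and 3, HNRNPF, HNRNPU and PTBP1, in POLIIS2P. HNRNPD, also called AUF1, stood at 99.9 in both HNRNPU lists and at 99.6 and 99.5 for POLIIS2P, a difference of 1.22 ± 0.11 (adjusted p = 8.42e-06). HNRNPK differed by 0.42 ± 0.18 (adjusted p = 0.0954) and HNRNPA1 by -0.32 ± 0.17 (adjusted p = 0.169). Splicing factors were split, 11 of 47 tested ranking higher in HNRNPU and 8 in POLIIS2P, with 36 of 49 shared. SNRPE, an Sm protein, differed by 0.65 ± 0.21 (adjusted p = 0.0306), SNRNP70 by 0.61 ± 0.24 (adjusted p = 0.0647) and the helicase DDX5 by 0.13 ± 0.20 (adjusted p = 0.657).

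Of 86 cytosolic ribosomal protein genes 55 were shared, 2 had HNRNPU alone and 5 POLIIS2P alone. In the rank test 8 of 64 ranked higher in HNRNPU and 23 in POLIIS2P. Of the 51 with known strand, 41 (80.4%) had their strongest HNRNPU summit at the outer start in both repeats, against 62.3% of all genes tested. The strongest POLIIS2P summit was at the finish in 18 (35.3%), against 8.95% of all genes tested. The ribosomal protein genes were short, with a median length of 5046 bp against 24115 bp for all protein-coding genes. The part of gene length in these shares was not tested. RPL27A, of the large subunit, ranked 124 and 69 in the HNRNPU lists and 7 and 5 in the POLIIS2P lists, where its summit lay 922 bases before the finish, a difference of -0.89 ± 0.11 (limma adjusted p = 5.74e-05). RPS19 itself ranked higher in HNRNPU, by 0.75 ± 0.10 (adjusted p = 0.000145), as did RPL41, by 0.61 ± 0.12 (adjusted p = 0.00244). RPL37 differed by 0.19 ± 0.17 (adjusted p = 0.412). Of 76 mitochondrial ribosomal protein genes 38 were shared, and 7 of 58 tested ranked higher in HNRNPU and 10 in POLIIS2P. MRPS18B differed by 0.92 ± 0.13 (adjusted p = 0.000236), MRPL24 by 0.82 ± 0.18 (adjusted p = 0.00331), MRPL38 by 0.23 ± 0.21 (adjusted p = 0.440) and MRPL45 by 0.23 ± 0.22 (adjusted p = 0.447).

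Of 34 pluripotency genes listed 32 were measured, 17 were shared, and 2 each had HNRNPU alone and POLIIS2P alone. Of 23 tested, 9 ranked higher in POLIIS2P and 1, JARID2, a cofactor of the Polycomb complex PRC2, in HNRNPU. LIN28A, which blocks the maturation of let-7, stood at 96.7 and 95.1 for HNRNPU and 99.7 in both POLIIS2P lists, a difference of -0.87 ± 0.17 (limma adjusted p = 0.00208). JARID2 differed by 0.83 ± 0.21 (adjusted p = 0.00768), SALL4, a zinc finger factor, by 0.08 ± 0.24 (adjusted p = 0.812) and VRTN by 0.21 ± 0.22 (adjusted p = 0.501). Endoderm and mesoderm regulators were shared in 2 of 25 cases and had HNRNPU alone in 7, a count that was 0 both with 10000 summits per list and with all of them. With all summits 13 of them were shared. Of 13 tested CXCR4 ranked higher in HNRNPU and TBX6 in POLIIS2P. SOX17, an endoderm factor, stood at 78.5 and 45.1 for HNRNPU and 69.8 and 69.9 for POLIIS2P, and GATA4 at 66.2 and 51.1 against 56.0 and 63.0. Both counted as HNRNPU alone, since the cutoff for a strong summit stood at a lower percentile in the HNRNPU lists. KDR and FOXA1 were the 2 shared ones. Of 25 neural regulators 2, RAX and POU3F2, were shared, 3 had HNRNPU alone, and 1 of 10 tested, PAX6, ranked higher in HNRNPU (1.25 ± 0.44, adjusted p = 0.0421).

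**Figure D5:**
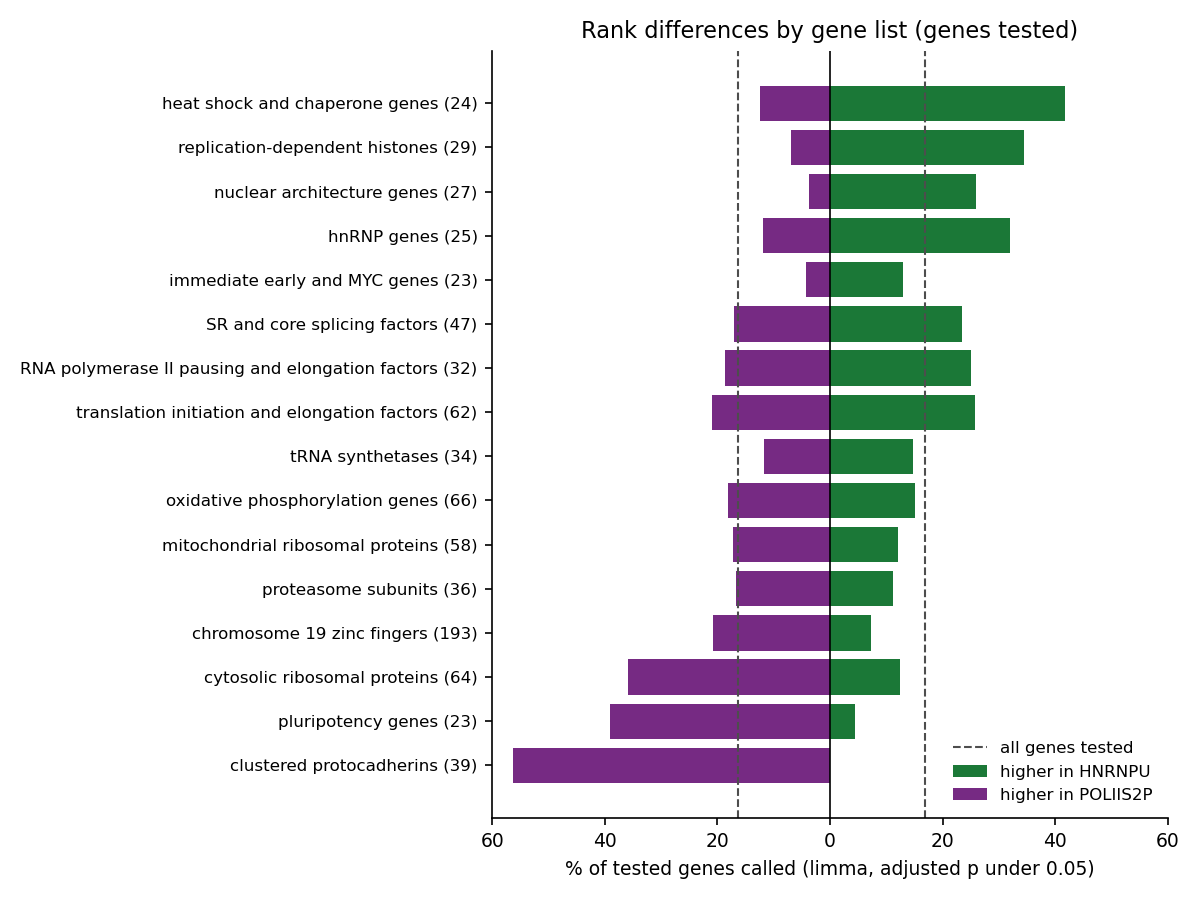
Share of tested genes (x axis, %) that ranked higher in HNRNPU (right) or in POLIIS2P (left) for each list with at least 20 genes tested (y axis, number tested in brackets), with dashed lines at the shares over all genes, 16.9% and 16.4%. Heat shock genes extend farthest to the right and protocadherins farthest to the left, the latter resting on few distinct summits.

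The clustered protocadherins, cell adhesion genes whose variable exons share constant ones, gave 22 of 39 tested genes that ranked higher in POLIIS2P and none in HNRNPU. Their genes overlap, the 35 of known strand holding 7 distinct sets of summits, and 20 of these 35 had the strongest POLIIS2P summit at the finish. PCDHA1, PCDHA10, PCDHA11 and PCDHA12 shared their values, 93.8 and 94.5 for HNRNPU against 98.5 and 99.1 for POLIIS2P, and did not pass (a difference of -0.47 ± 0.21, limma adjusted p = 0.105). Of 250 zinc finger genes on chromosome 19, 152 were shared, and 14 of 193 tested ranked higher in HNRNPU and 40 in POLIIS2P. ZNF331, ZNF8, ZNF653 and ZNF627, the highest of them, carried all 4 summits at a start and differed by -0.36 ± 0.16, -0.41 ± 0.16, -0.41 ± 0.17 and 0.47 ± 0.20, none passing. Chromosome 19 as a whole held 5.88% and 5.91% of the strong HNRNPU summits and 9.06% and 9.28% of those of POLIIS2P.

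Genes of the transcription machinery were split between the antibodies. Of 12 polymerase II subunits 4 were shared, near the share of all genes, 1 had HNRNPU alone and 1 POLIIS2P alone, and 2 of 7 tested, POLR2H (1.12 ± 0.27, limma adjusted p = 0.00727) and POLR2G, ranked higher in HNRNPU and 1, POLR2D, in POLIIS2P. POLR2I differed by 0.48 ± 0.30 and POLR2F by -0.14 ± 0.33, neither passing. Of 32 pausing and elongation factors 22 were shared, 8 ranked higher in HNRNPU and 6 in POLIIS2P. ELL and AFF4, of the super elongation complex, differed by 0.71 ± 0.16 (adjusted p = 0.00457) and 1.10 ± 0.19 (adjusted p = 0.000795), LARP7, which binds 7SK RNA, by -0.56 ± 0.14 (adjusted p = 0.00881), and CCNT2, a cyclin of P-TEFb, by 0.45 ± 0.25 (adjusted p = 0.180). LARP7 had HNRNPU at its start, 67 and 118 bases after it, and POLIIS2P in the interior. Of 20 factors that process the 3′ ends of mRNA 14 were shared, 1 had HNRNPU alone and 3 POLIIS2P alone. In the rank test 2 of 18, PCF11 (1.07 ± 0.18, adjusted p = 0.000551) and CSTF2, ranked higher in HNRNPU and 5, WDR33, CPSF4, CSTF3, CPSF6 and CPSF1, in POLIIS2P. PABPN1, CLP1 and SYMPK differed by 0.20 ± 0.17, 0.25 ± 0.24 and -0.52 ± 0.22 and did not pass.

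Some immediate early genes had the antibodies at opposite ends. Of 17 tested genes of known strand in this list, 12 (70.6%) had the strongest HNRNPU summit at the outer start in both repeats. The strongest POLIIS2P summit was at the finish in 5 (29.4%) and at the outer start in 4 (23.5%). Of all tested genes of known strand, 62.3% had HNRNPU at the outer start. POLIIS2P was at the finish in 8.95% of all these genes and at the outer start in 43.2%. The immediate early list had a median gene length of 5267 bp, against 24115 bp for all protein-coding genes, and the part of length was not tested. Of 29 immediate early and MYC genes 16 were shared, and of 23 tested 3, ATF3, JUN and NR4A1, ranked higher in HNRNPU and 1, FOSB, in POLIIS2P. EGR1, a zinc finger factor induced by growth signals, had HNRNPU 851 and 672 bases before the start, at percentiles 97.4 and 98.2, and POLIIS2P 445 and 479 bases past the finish, at 99.5 and 99.3. FOS had HNRNPU 271 bases before the start in each repeat, at 92.9 and 88.9, and POLIIS2P 940 and 961 bases before the finish, at 96.8 and 96.6. SRF had HNRNPU 171 bases before the start in each repeat, and its strongest POLIIS2P summit lay past the finish in replicate 1 and in the interior in replicate 2. None of EGR1, FOS, SRF and MCL1 passed, with differences of -0.26 ± 0.17, -0.21 ± 0.25, 0.09 ± 0.24 and 0.63 ± 0.24.

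Among other housekeeping lists, beside 35.9% of all protein-coding genes, 27 of 35 tRNA synthetase genes, 44 of 71 translation factors, 30 of 48 proteasome genes and 44 of 87 oxidative phosphorylation genes were shared. In the rank test 5 of 34 synthetases, 16 of 62 translation factors, 4 of 36 proteasome genes and 10 of 66 oxidative phosphorylation genes ranked higher in HNRNPU, and 4, 13, 6 and 12 in POLIIS2P. EEF2KMT, the methyltransferase of elongation factor 2, ranked 2 and 7 in the HNRNPU lists and 590 and 1193 in the POLIIS2P lists, a difference of 2.28 ± 0.15 (limma adjusted p = 7.47e-07). EEF2KMT is also named FAM86A, and the placing of reads between it and the FAM86 pseudogenes named below is uncertain. NDUFA11, of complex I, differed by 1.03 ± 0.14 (adjusted p = 0.000113), PSME2, of the proteasome activator, by 1.34 ± 0.22 (adjusted p = 0.000537) and PSMG1, a proteasome assembly chaperone, by -1.10 ± 0.10 (adjusted p = 7.76e-06). HARS1, the histidine synthetase, had HNRNPU 142 and 33 bases before its start and POLIIS2P 231 and 456 bases past its finish and did not pass (0.29 ± 0.21, adjusted p = 0.296). Gene families of differentiated tissues carried little of either antibody. Of 39 HOX genes none was shared and 3 had HNRNPU alone, of 392 olfactory receptor genes none was shared and 1, OR51D1, had HNRNPU alone, and of 55 keratins 1, KRT8, was shared and 1, KRT19, had HNRNPU alone. KRT8 ranked higher in POLIIS2P (-1.24 ± 0.29, adjusted p = 0.00515) and KRT19 in HNRNPU (2.05 ± 0.46, adjusted p = 0.00419), and of 6 HOX genes tested HOXC13 ranked higher in HNRNPU (1.26 ± 0.42, adjusted p = 0.0330).

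Noncoding genes were counted by kind in the same classes, and no kind was tested against another. Of 18303 lncRNA genes 1478 (8.08%) were shared, 1047 (5.72%) had HNRNPU alone and 314 (1.72%) POLIIS2P alone. Of 14 nuclear lncRNA genes 10 were shared and 1, LINC01108, had POLIIS2P alone. MALAT1, an abundant RNA of nuclear speckles, had HNRNPU 222 and 165 bases before its start, at percentiles 99.2 and 95.7, and POLIIS2P 484 and 618 bases past its finish, at 99.5 and 98.8. PVT1, the neighbour of MYC, stood at 99.4 and 99.7 against 98.5 and 98.7, and DANCR carried all 4 summits 73 bases before its start. Of 32 genes that host small nucleolar RNAs 16 were shared, 1 had HNRNPU alone and 2 POLIIS2P alone. GAS5, a host gene with many such RNAs, ranked 7 and 3 in the HNRNPU lists and 390 and 580 in the POLIIS2P lists. Of 443 tRNA genes, which polymerase III transcribes, 53 (12.0%) were shared, 53 (12.0%) had HNRNPU alone and 9 (2.03%) POLIIS2P alone. Of all protein-coding genes 9.09% had HNRNPU alone. TRR-CCT4-1, the highest of them, stood at 95.6 and 98.3 for HNRNPU and 97.7 and 97.6 for POLIIS2P. TRG-TCC1-1 and TRV-CAC3-1 had the same percentiles in all 4 lists, so that 1 summit can be counted at more than 1 tRNA gene. Among the strongest HNRNPU summits in no protein-coding gene region were the pseudogenes FAM86JP, FAM86GP and FAM86FP and bases 8208976 and 8988169 of chromosome 21, where neither POLIIS2P list had a summit. The first of these lies by the ribosomal RNA genes RNA45SN2 and RNA18SN2, and the other by the miRNA genes MIR3648-2 and MIR10396A. FAM86GP was also among the strongest of POLIIS2P, on the same base, 3422953 of chromosome 11. The FAM86 pseudogenes and the ribosomal RNA genes are near copies of other sequences, and the placing of reads among them is uncertain. The strongest POLIIS2P summit of this kind, at base 38202640 of chromosome 14, lay near no listed gene and had no HNRNPU summit.

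Libraries that did not define the classes were set beside them. In the histone libraries of shLUC cells, whose titles and file names disagree on the antibody, the libraries with H3K4me1 in the title and H3K27ac in the file name had a strong summit within 500 bp of 62.2% ± 4.12 (SD, n = 2) of the shared sites (counted at their HNRNPU summits), 35.5% ± 2.10 of the sites with HNRNPU alone and 15.9% ± 0.841 of those with POLIIS2P alone. The libraries with H3K27ac in the title and H3K4me1 in the file name had one at 26.6% ± 0.380, 27.8% ± 0.0766 and 12.2% ± 0.157. In both kinds of library the sites with POLIIS2P alone had the lowest share. The POLIIS2P library of cells with shHNRNPU #1, a single sample, had a strong summit at 95.6% of the shared genes, 18.7% of those with HNRNPU alone, 87.7% of those with POLIIS2P alone and 2.34% of those with neither. With 1 library there is no test of this, and nothing is said of a change between the shRNAs.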

How the data were processed

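The authors deposited 1 list of summits per CUT&TAG library, each with a significance on a −log10 scale as its score, in the summit layout of MACS2. The submitters' processing notes name the build hg38 and the tools cutadapt, Bowtie2, SAMtools, MACS2 and deepTools; versions, roles and settings are not given in the sources used here. A deposited series-wide list of 48095 HNRNPU intervals of 400 bp, whose score column is empty of information (every score is 0), served as an alternative. Read depth is unknown, so no interval for counting error was computed.

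From these lists the 20000 highest summits per library were placed against 20037 protein-coding genes of RefSeq on GRCh38.p14, of which 15843 had a strand and start in the tables used. Python 3.11.15 with numpy 2.4.6, pandas 2.3.3 and scipy 1.17.1 gave shares, overlaps within 250 bp and exact two-sided permutation tests. Normal scores of the ranked strongest summits were tested in limma 3.58.1 under R 4.3.3, with Benjamini-Hochberg adjustment over all 11590 genes, after a test on simulated data.

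Named genes were the 10 highest by minimum percentile in each class, the 5 largest rank differences in each direction, up to 4 members per list, 5 fixed genes and the 5 highest summits per antibody outside protein-coding genes. Genes at opposite ends and called members of small groups were named after their values were seen. The comparison and the gene lists were chosen with earlier results of these data known. Alternatives were the number of summits, windows, distances, the interval list, another scale, a replicate block and each library left out. Using 1 start per gene, 1 entry per set of shared summits and genes of 10000 to 100000 bp were chosen after seeing the data.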

Additional observations from a re-analysis of the deposited data

How the results depend on the processing

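The gene-end share reversed with a window of 2000 bp, to -0.165 percentage points. The overlap between antibodies was 34.9% with all deposited summits, 30.0% within 100 bp and 43.8% within 500 bp. Shared genes numbered 3846 with 10000 summits per list and 11590 with all of them. Genes with HNRNPU alone numbered 587 with all summits and 4783 with the interval list, and genes with POLIIS2P alone 938 and 327. Of 23 gene lists, the number shared stayed within 1.5 times its value in 11 with 10000 summits and 15 with all, the number with HNRNPU alone in 4 and 4, and the number with POLIIS2P alone in 13 and 11. Of the 1821 genes with HNRNPU alone, 581 kept that class with 10000 summits and 242 with all, and of the 770 with POLIIS2P alone 399 and 297 did. With gene ends only, 8437 genes were tested, of which 1240 ranked higher in HNRNPU and 1212 in POLIIS2P by limma.

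With each library left out in turn, the differences ranged from 3.79 to 4.27 percentage points for gene ends, from -14.4 to -14.0 for bodies, from 10.0 to 10.3 for intergenic summits and from 18.2 to 18.7 for the start share. The overlap ranged from 40.1% to 41.2%, shared genes from 7658 to 7853, genes with HNRNPU alone from 2333 to 2630 and genes with POLIIS2P alone from 951 to 1304, where leaving out HNRNPU replicate 1 gave 1304 and replicate 2 gave 1243. Genes called by limma ranged from 1117 to 2558 for HNRNPU and from 1133 to 2540 for POLIIS2P.

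Within 250 and 1000 bp, the libraries with H3K27ac in the title and H3K4me1 in the file name had a summit at 26.5% and 28.5% of sites with HNRNPU alone, 11.9% and 12.8% with POLIIS2P alone, and 25.7% and 27.03% of shared sites at HNRNPU summits, and within 250 bp at 25.4% of shared sites at POLIIS2P summits. The other kind had one at 31.9% and 37.6% with HNRNPU alone, 14.5% and 17.2% with POLIIS2P alone, and within 250 bp at 56.5% and 56.8% of shared sites at HNRNPU and POLIIS2P summits. The causes were not tested, apart from what each setting leaves in or out.

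No label ties the replicate numbers of the antibodies to each other. The deviations of same-numbered libraries correlated at 0.0207 over 11590 genes, a value that cannot show whether they shared a culture or batch. With a replicate block 2172 genes ranked higher in HNRNPU and 2086 in POLIIS2P. Unknown depth and the exact test over 4 libraries, which cannot go below 0.333, limit all shares.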
